A study of Mus musculus with 8 samples.

Results

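The genes described here encode the protein subunits of oxidative phosphorylation that the nucleus supplies. They were chosen by name alone, as probe sets of the Affymetrix array that carry a single gene symbol beginning with Nduf followed by a, b, c, s or v, with Uqcr, with Cox4 to Cox8 or with Atp5, or that read Sdha, Sdhb, Sdhc, Sdhd or Cyc1. The rule found 85 of 13201 genes, read by 158 of 21556 probe sets. Complex I held 35 of them, complex II 4, complex III 9, complex IV 17 and complex V 14, which makes 79 subunit genes. The remaining 6 share the names but are not subunits. Ndufaf1, Ndufaf3 and Ndufaf4 encode assembly factors of complex I, Atp5s and Atp5sl are older names of Dmac2l and Dmac2, and Cox4nb is an older name of Emc8. Ndufa4, first described in complex I, was counted with complex IV, in which its protein is now placed.

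Mitochondria make most of the ATP of resting cells by passing electrons from NADH through complex I, or from succinate through complex II, to ubiquinone, and from there through complex III and cytochrome c to complex IV, where oxygen is reduced. Complexes I, III and IV pump protons across the inner membrane as they do so, and complex V, the ATP synthase, lets the protons back in to make ATP. All subunits of complex II and most of those of the other complexes are encoded in the nucleus, so their mRNAs can be read on an array. In the epidermis, keratinocytes (KCs) leave the basal layer, differentiate and finally lose their mitochondria in the cornified layer.

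The question was how these transcripts differed in the epidermis of mice without Tcl1 (Tcl1-/-), of K14-TCL1 mice and of wild type (WT) mice. K14-TCL1 mice are also Tcl1-/- and carry human TCL1A under the keratin 14 promoter, which is active in basal KCs. The WT mice were C57bl/6, the sources used here name no strain for the others, and genotype and strain therefore cannot be told apart. All mice were depilated, the skin was taken 3 days later, the epidermal sheet was freed from the dermis with dispase, and total RNA was hybridized to 1 array per animal, for 3 animals of each genotype but WT, which had 2. The mice were adult, with no age in days stated.

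The deposited intensities, summarised by RMA, ran from 4.92 to 20952, and the log2 medians of the 8 arrays lay between 6.52 and 6.55. Markers of KCs were among the brightest probe sets on every array, with Krt14, of the basal layer, at 15790 to 16990 and Krt10, of the suprabasal layers, at 16900 to 18880. Markers of skeletal muscle, a tissue rich in mitochondria, were dim. Of its 11 genes 3 were bright enough to be tested, with a summed intensity of all 11 of 266 to 279 over the 8 arrays, none of the 3 was called in any comparison, and Ckm, the muscle creatine kinase, was at 62.3 to 73.7. Of 10 adipocyte markers 5 were tested, of which 2 were called higher in each mutant than in WT, with sums of 809 to 855 in Tcl1-/-, 758 to 770 in K14-TCL1 and 653 to 671 in WT. Adipoq and Ucp1 were at 6.82 to 8.17 and 13.7 to 17.3, whereas Cidea was at 309 to 421 and Lpl at 152 to 233. The sums of 8 fibroblast markers were 1460 to 1473, 1188 to 1253 and 1169 to 1173 in the same order, mostly of Vim. Col1a1 was at 12.6 to 16.2. Fbln1 ran opposite to the sums, at 94.0 to 97.0 in Tcl1-/-, 138 to 150 in K14-TCL1 and 168 to 170 in WT. The 4 tested fibroblast markers gave 1 call in each direction when Tcl1-/- was set against WT. Other cells of the sheet differed as well. The summed intensity of 7 Langerhans cell markers was 8929 to 9331 in Tcl1-/-, 7473 to 7475 in K14-TCL1 and 6495 to 6707 in WT, with 6 of the 7 called higher in Tcl1-/- than in WT. That of 7 suprabasal KC markers was 58749 to 59194, 53463 to 54407 and 57285 to 58361 in the same order, mostly of Krt1, Krt10 and Lor. Gene by gene these 7 did not move together. Against WT, 2 were called higher and 2 lower in Tcl1-/-, and 1 higher and 3 lower in K14-TCL1. In Tcl1-/- against K14-TCL1, 4 were higher and 1 lower. Sebocyte markers summed to 13664 to 13765, 14988 to 15408 and 13736 to 13861, highest in K14-TCL1, although 4 of the 6 were called higher and 1 lower in Tcl1-/- than in K14-TCL1. Of 6 markers of epidermal T cells 4 were lower in that comparison, and against WT 3 were higher and 1 lower in K14-TCL1 and 2 higher and 1 lower in Tcl1-/-. Their sums of 1670 to 1717, 1861 to 1927 and 1907 to 1908 were made up mostly of Thy1, at 917 to 1247 and highest in WT, whereas Cd3d, Cd3e and Cd3g were lowest in WT. Of 7 basal KC markers, 4 fell and 1 rose in K14-TCL1 against WT. In Tcl1-/-, 1 of the 7 rose and 1 fell against WT, and 1 rose and 1 fell against K14-TCL1. Several of these marker values move with the genotypes compared below, and their part in the results was not tested. In such bulk RNA, fewer cells of a type and less RNA per cell cannot be told apart.

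Every difference given here is a difference of genotype means of log2 intensity with its standard error (SE), from a limma fit over 9731 genes, in which each gene was read by its brightest probe set. A gene was called higher or lower at a Benjamini-Hochberg adjusted p under 0.05 over all 9731. Of the 85 genes, 82 were bright enough in at least 1 genotype to be tested. The 3 that were not are isoforms of complex IV known from other tissues, namely Cox4i2 of the lung (intensity 27.6 to 33.6 over the 8 arrays), Cox6b2 of the testis (26.5 to 32.7) and Cox7a1 of heart and skeletal muscle (9.92 to 13.1).

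Most of the transcripts were highest in the epidermis of K14-TCL1 mice, and by small amounts. Of the 82 genes, 55 (67.1%) had their highest mean in K14-TCL1, where 33.1% of all tested genes had. Between the genotypes without mouse Tcl1, 26 genes (31.7%) were lower in Tcl1-/- than in K14-TCL1 and 3 (3.66%) higher, where 12.7% and 13.9% of all tested genes were. The median difference of the 82 was -0.074, with 65 of them below 0, against 5.6e-05 over all tested genes. K14-TCL1 set against WT had 11 genes higher (13.4%) and 1 lower (1.22%), where 11.7% and 9.84% of all tested genes were, and a median of 0.074, against 0.010 over all tested genes. Tcl1-/- against WT had 9 higher and 9 lower (11% each), where 14.4% and 12.2% of all tested genes were, and a median of -0.0027, against 0.0085. The comparisons against WT share the WT arrays, and those with K14-TCL1 share its arrays, on which the count of highest means rests as well. With a prior variance tied to mean intensity the 11 became 31, where 2583 of all tested genes were called in either direction in place of 2096. A filter at 6 took the 11 to 17, where 2221 of all tested genes were called. The called differences were small, with a median of 1.13-fold in Tcl1-/- against K14-TCL1, 1.14-fold in K14-TCL1 against WT and 1.15-fold in Tcl1-/- against WT. In the same order, 53, 70 and 64 of the 82 genes were not called, where 7139, 7635 and 7138 of the 9731 tested genes were not. In none of the 3 were 47 of the 82 called, a count that was not made over all tested genes.

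**Figure D1:**
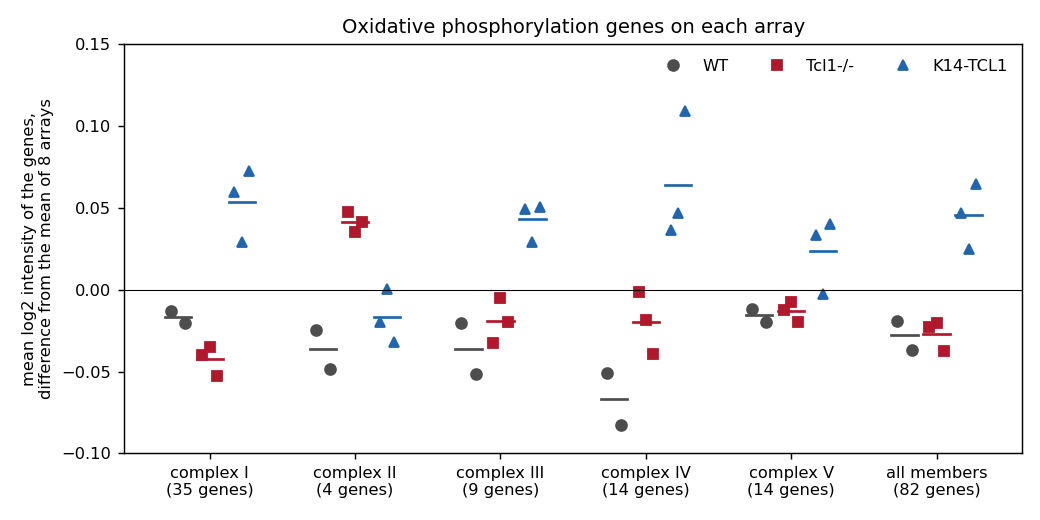
Mean log2 intensity of the tested genes of each complex, and of all 82, on each of the 8 arrays, as the difference from the mean over the arrays, with 1 point per array and a line at the mean of each genotype. For all 82 genes the 3 K14-TCL1 arrays lie at 0.025 to 0.065, above the Tcl1-/- arrays (-0.038 to -0.020) and the WT arrays (-0.037 and -0.019), while in complex II the 3 Tcl1-/- arrays are the highest. Over all tested genes, not drawn, K14-TCL1 replicate 2 stood at 0.0185 and the WT arrays at -0.0095 and -0.0111.

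Averaged over the 82 genes, the arrays stood at -0.023, -0.020 and -0.038 in Tcl1-/-, 0.047, 0.025 and 0.065 in K14-TCL1 and -0.019 and -0.037 in WT, relative to the mean of the 8. The K14-TCL1 arrays lay above all others, and the Tcl1-/- and WT arrays overlapped. Over all tested genes the arrays stood at -0.0002, 0.0009 and 0 in Tcl1-/-, 0.0009, 0.0185 and 0.0006 in K14-TCL1 and -0.0095 and -0.0111 in WT. The 0.025 of K14-TCL1 replicate 2 thus lay close to its 0.0185 over all tested genes. Gene by gene, all 3 Tcl1-/- arrays lay below all 3 K14-TCL1 arrays for 39 of the 82 (47.6%) and above them for 9 (11%), where 21% and 21.6% of all tested genes did. Against WT, all K14-TCL1 arrays lay above for 43 (52.4%) and below for 7 (8.54%), where 27.3% and 23.3% did, and all Tcl1-/- arrays lay above for 27 (32.9%) and below for 22 (26.8%), where 30.1% and 27.7% did. Single arrays weighed on the counts of calls. The 26 genes lower in Tcl1-/- than in K14-TCL1 became 16 without Tcl1-/- replicate 2, 14 without Tcl1-/- replicate 3 and 17 without K14-TCL1 replicate 1, and the 3 higher became 1 without Tcl1-/- replicate 1. Against WT, the 11 genes higher in K14-TCL1 became 7 without K14-TCL1 replicate 1, 6 without WT replicate 1 and 3 without WT replicate 2, and the 1 lower became 0 without either WT array. The 9 genes higher in Tcl1-/- became 4 without WT replicate 2, and the 9 lower became 5 without WT replicate 1 and 3 without WT replicate 2. The calls over all tested genes, in either direction, fell under the same omissions. Those of Tcl1-/- against K14-TCL1 went from 2592 to 1950, 1873 and 1977 without Tcl1-/- replicate 2, Tcl1-/- replicate 3 and K14-TCL1 replicate 1, and to 1781 without Tcl1-/- replicate 1. Those of K14-TCL1 against WT went from 2096 to 1586, 971 and 1054 without K14-TCL1 replicate 1, WT replicate 1 and WT replicate 2, and those of Tcl1-/- against WT from 2593 to 1411 and 1575 without WT replicate 1 and WT replicate 2.

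The promoters of these genes are known for binding sites of NRF1 and YY1 and of ETS-family factors, and the sequences of the region before and after the start were searched for them. RefSeq promoters on GRCm38.p6, from 250 bases before the start to 50 after it, matched 69 of the 85 genes, with 75 promoters. On both strands, GCGCANGCG (NRF1) was found in 20 of the 75 (26.7%), against 6.25% of 32851 promoters, AAGATGGCG (YY1) in 9 (12%), against 1.4%, and ACCGGAAGT (ETS) in 1 (1.33%), against 1.1%. Matches to different motifs overlapped in 2 of the 32851. Of the 24 matched genes that were lower in Tcl1-/- than in K14-TCL1, 7 held the NRF1 motif, and of the other 45 matched genes 12 did. A match describes the letters and is not a measured site.

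Promoters are shown of 5 genes whose transcripts moved, those of Ndufa4 and Cox7a2l by the most in K14-TCL1. They are printed in 5′ to 3′ order of the gene, with matches in capitals. All lie on the minus strand, Ndufa5 at chr6:24527477-24527776, Ndufs6 at chr13:73328433-73328732, Sdhd at chr9:50603800-50604099, Ndufa4 at chr6:11907401-11907700 and Cox7a2l at chr17:83514284-83514583. Ndufa5, Ndufs6 and Sdhd were lower in Tcl1-/- than in K14-TCL1 and hold the NRF1 motif, and Ndufs6 holds the YY1 motif as well. Ndufs6, an accessory subunit of complex I with a difference of -0.13 ± 0.034 (adjusted p = 0.021), was chosen for its motifs after its values were seen. Ndufa4 and Cox7a2l, which were also lower in Tcl1-/- than in K14-TCL1, hold none of the 3 motifs in this window. The 5 promoters were picked and do not show how often a motif goes with a lower transcript.
Ndufa5: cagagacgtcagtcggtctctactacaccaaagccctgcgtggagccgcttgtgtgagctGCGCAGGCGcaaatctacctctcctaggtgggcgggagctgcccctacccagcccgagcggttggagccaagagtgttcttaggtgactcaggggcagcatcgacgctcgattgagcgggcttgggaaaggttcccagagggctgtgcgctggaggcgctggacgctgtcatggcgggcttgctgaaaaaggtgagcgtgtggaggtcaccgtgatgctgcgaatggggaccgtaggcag
Ndufs6: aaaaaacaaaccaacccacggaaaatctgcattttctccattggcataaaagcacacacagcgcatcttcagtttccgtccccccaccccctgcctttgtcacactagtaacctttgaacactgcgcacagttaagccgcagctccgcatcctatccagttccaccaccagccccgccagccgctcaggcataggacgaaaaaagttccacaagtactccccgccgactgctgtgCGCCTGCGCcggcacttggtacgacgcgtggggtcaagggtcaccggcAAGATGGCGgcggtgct
Sdhd: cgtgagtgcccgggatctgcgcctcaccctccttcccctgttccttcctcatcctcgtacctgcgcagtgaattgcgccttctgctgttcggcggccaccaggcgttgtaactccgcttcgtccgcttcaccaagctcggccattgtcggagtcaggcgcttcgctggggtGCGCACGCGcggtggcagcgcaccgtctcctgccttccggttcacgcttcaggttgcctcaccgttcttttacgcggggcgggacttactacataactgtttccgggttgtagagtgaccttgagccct
Ndufa4: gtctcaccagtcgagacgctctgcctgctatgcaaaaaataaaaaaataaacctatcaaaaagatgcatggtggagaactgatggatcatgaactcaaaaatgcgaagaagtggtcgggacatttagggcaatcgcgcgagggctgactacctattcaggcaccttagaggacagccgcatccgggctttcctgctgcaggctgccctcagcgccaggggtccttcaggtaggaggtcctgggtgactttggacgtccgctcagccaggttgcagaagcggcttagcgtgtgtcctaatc
Cox7a2l: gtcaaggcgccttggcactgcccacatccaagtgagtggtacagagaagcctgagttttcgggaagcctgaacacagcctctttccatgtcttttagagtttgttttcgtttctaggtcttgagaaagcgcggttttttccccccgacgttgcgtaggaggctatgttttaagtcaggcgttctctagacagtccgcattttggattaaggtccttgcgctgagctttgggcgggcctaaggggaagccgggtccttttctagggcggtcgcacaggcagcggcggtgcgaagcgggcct

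**Figure D2:**
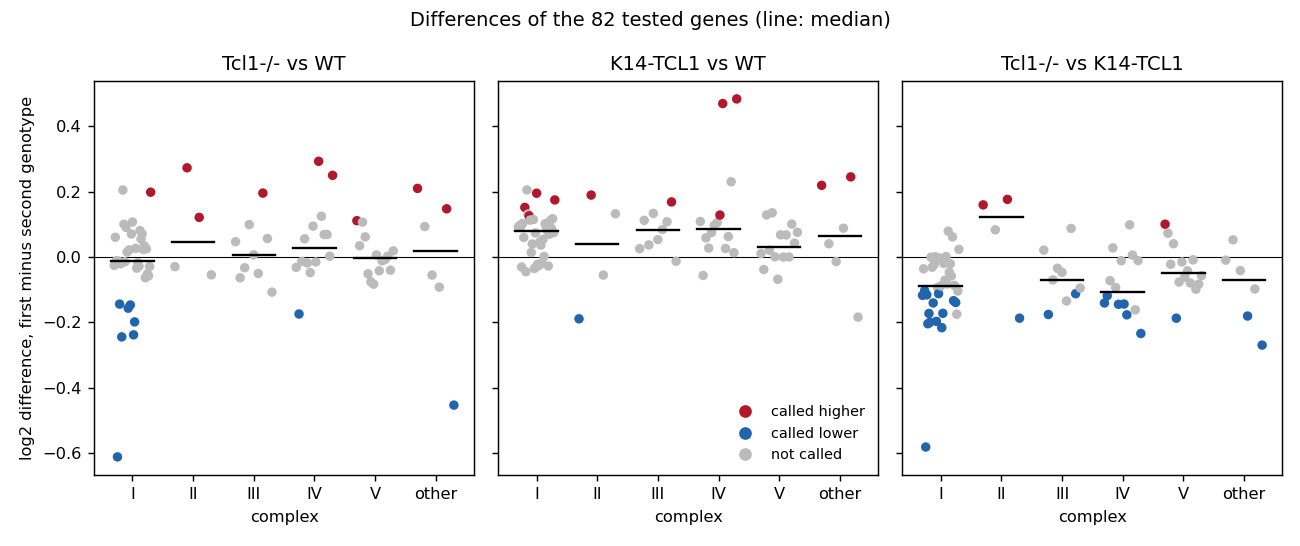
Differences in log2 intensity of the 82 tested genes in the 3 comparisons, by complex, with 1 point per gene, red for called higher, blue for called lower and grey for not called, and a line at each median. In Tcl1-/- against K14-TCL1 the 14 genes called in complex I all lie below 0, and complex II holds 2 called above 0 and 1 below.

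Of the 35 genes of complex I, NADH dehydrogenase, 14 (40%) were lower in Tcl1-/- than in K14-TCL1, where 12.7% of all tested genes were, and none was higher, with a median of -0.088. Of these 14, 13 were among the 28 accessory subunits (46.4%), which surround the catalytic core, and 1 was among the 7 core subunits (14.3%, near the share of all tested genes) that carry the flavin or the iron-sulfur clusters or line the ubiquinone site. The medians were close, at -0.091 for the accessory and -0.087 for the core subunits, with 24 of 28 and 6 of 7 below 0. By name, 8 of 13 Ndufa genes, 4 of 9 Ndufb, 2 of 8 Ndufs, none of 2 Ndufc and none of 3 Ndufv were lower. Against WT, Tcl1-/- had 7 complex I genes lower (20%, against 12.2% of all tested genes) and 1 higher. K14-TCL1 had 4 higher (11.4%, near the 11.7% of all tested genes) and none lower.

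Ndufa5, whose promoter with its NRF1 motif is printed above, encodes an accessory subunit of the arm that protrudes into the matrix. It had intensities of 766, 732 and 736 in Tcl1-/-, 843, 837 and 887 in K14-TCL1 and 886 and 878 in WT. All 3 Tcl1-/- arrays lay below the 5 others, among which K14-TCL1 and WT overlapped. The difference was -0.24 ± 0.041 against WT (adjusted p = 0.00343) and -0.20 ± 0.037 against K14-TCL1 (adjusted p = 0.0059). Its other probe set had -0.12 ± 0.045 and -0.17 ± 0.040, of which the latter was called when all probe sets were tested.

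Ndufb7, an accessory subunit on the side of the intermembrane space, stood at 1184, 1174 and 1159 in Tcl1-/-, 1288, 1304 and 1371 in K14-TCL1 and 1330 and 1360 in WT. Here too the Tcl1-/- arrays were the lowest and the others overlapped. Ndufb7 was lower in Tcl1-/- by -0.17 ± 0.036 than in K14-TCL1 (adjusted p = 0.00944) and by -0.20 ± 0.040 than in WT (adjusted p = 0.00759). The latter no longer passed without WT replicate 2 (adjusted p = 0.0591). Ndufa2, Ndufb10 and Ndufb6, further accessory subunits, had the same order of arrays, with Tcl1-/- lower than K14-TCL1 by -0.20 ± 0.036, -0.20 ± 0.042 and -0.22 ± 0.043. Against WT they had -0.14 ± 0.040, -0.16 ± 0.047 and -0.24 ± 0.049, all called, and all lost without WT replicate 2 (adjusted p = 0.078, 0.119 and 0.059). Ndufa2 was lost there too without WT replicate 1 (0.185) or Tcl1-/- replicate 1 (0.0938) or 2 (0.069), and Ndufb10 without WT replicate 1 (0.188), Tcl1-/- replicate 1 (0.105) or 3 (0.108) or K14-TCL1 replicate 1 (0.0602). The second probe set of Ndufb6 gave -0.031 ± 0.034 and was not called.

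The largest difference of any member was that of Ndufa12, an accessory subunit, and it rested on 1 probe set. That probe set read 1439, 1578 and 1610 in Tcl1-/-, 2332, 2258 and 2324 in K14-TCL1 and 2375 and 2332 in WT, with the Tcl1-/- arrays far below the rest. The difference was -0.61 ± 0.052 against WT (adjusted p = 8.25e-05) and -0.58 ± 0.046 against K14-TCL1 (adjusted p = 9.82e-05). Its name ends in _x_at, which marks probes that may bind other transcripts. The other 3 probe sets of Ndufa12 differed from WT by 0.039, 0.19 and -0.13, and none of them was called in any comparison, so that the values of the 4 disagree.

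Among the core subunits, Ndufs8, which holds iron-sulfur clusters next to the ubiquinone site, had 2392, 2257 and 2306 in Tcl1-/-, 2557, 2551 and 2548 in K14-TCL1 and 2390 and 2413 in WT. The K14-TCL1 arrays were the highest, and those of Tcl1-/- and WT overlapped. Ndufs8 was lower in Tcl1-/- than in K14-TCL1 by -0.14 ± 0.033 (adjusted p = 0.0172), and with all probe sets tested, each of its 6 was called lower there, by -0.14 to -0.26. For the brightest the call was lost without Tcl1-/- replicate 2 (adjusted p = 0.0622), Tcl1-/- replicate 3 (0.0543) or K14-TCL1 replicate 1 (0.0502). The core subunit genes Ndufs1, Ndufs3, Ndufs7, Ndufv1 and Ndufv2 were not called in any comparison. In Tcl1-/- against K14-TCL1, Ndufs1, the largest of them, had 0.079 ± 0.037, and Ndufs3 had -0.021 ± 0.030. Ndufs7, Ndufv1, which binds the flavin and NADH, and Ndufv2 had -0.087 ± 0.042, -0.17 ± 0.056 and -0.10 ± 0.044.

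Other complex I genes differed from WT in a mutant in the upward direction. Ndufv3, an accessory subunit beside the NADH site, was at 2036, 2120 and 2045 in Tcl1-/-, 2011, 2033 and 2056 in K14-TCL1 and 1787 and 1815 in WT, so that both genotypes without mouse Tcl1 lay above WT and overlapped each other. It was higher by 0.20 ± 0.036 in Tcl1-/- (adjusted p = 0.00483) and by 0.18 ± 0.036 in K14-TCL1 (adjusted p = 0.011). The call in K14-TCL1 was lost without WT replicate 1 (adjusted p = 0.0829) or WT replicate 2 (0.055). Ndufa3 and Ndufb5, accessory subunits, had 0.15 ± 0.036 and 0.20 ± 0.035 in K14-TCL1 against WT, both called. Without WT replicate 2 these had adjusted p of 0.087 and 0.0542, and Ndufa3 was also lost without WT replicate 1 (0.111), K14-TCL1 replicate 1 (0.0503) or K14-TCL1 replicate 3 (0.0522). Ndufa3 was lower in Tcl1-/- than in K14-TCL1 as well, by -0.17 ± 0.032 (adjusted p = 0.00613).

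Complex II, succinate dehydrogenase, is also an enzyme of the citric acid cycle, and its 4 genes did not move together. Sdhb, the iron-sulfur subunit, had 1016, 1059 and 1042 in Tcl1-/-, 977, 990 and 976 in K14-TCL1 and 876 and 844 in WT. The 3 genotypes did not overlap, with WT the lowest and Tcl1-/- the highest. Against WT, Sdhb was higher by 0.27 ± 0.037 in Tcl1-/- (adjusted p = 0.00113) and by 0.19 ± 0.037 in K14-TCL1 (adjusted p = 0.0089, and 0.0755 without WT replicate 2), and the difference of 0.083 ± 0.033 between them was not called (adjusted p = 0.0987).

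Sdhc, which anchors the enzyme in the membrane, read 791, 784 and 791 in Tcl1-/-, 695, 697 and 702 in K14-TCL1 and 730 and 720 in WT. Tcl1-/- was again the highest, and K14-TCL1 the lowest, without overlap. Sdhc was higher in Tcl1-/- than in K14-TCL1 by 0.18 ± 0.029 (adjusted p = 0.00365) and than in WT by 0.12 ± 0.033 (adjusted p = 0.0264). The latter was lost without any single array of Tcl1-/- or WT (adjusted p = 0.0603 to 0.141). Its other probe set had 0.040 ± 0.033 against K14-TCL1 and was not called.

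Sdhd, the partner of Sdhc in the membrane, went the other way, with 430, 415 and 442 in Tcl1-/-, 477, 516 and 472 in K14-TCL1 and 450 and 440 in WT. K14-TCL1 was the highest, while Tcl1-/- and WT overlapped. Its difference in Tcl1-/- against K14-TCL1 was -0.19 ± 0.045 (adjusted p = 0.0166, and 0.0579 without Tcl1-/- replicate 2). Sdha, the flavoprotein that oxidises succinate, read 904, 877 and 842 in Tcl1-/-, 801, 770 and 776 in K14-TCL1 and 889 and 895 in WT. It was the single gene called lower in K14-TCL1 than in WT, by -0.19 ± 0.042 (adjusted p = 0.0147), and was higher in Tcl1-/- than in K14-TCL1 by 0.16 ± 0.037 (adjusted p = 0.0154). Leaving out WT replicate 1 or 2 took the former to 0.0783 or 0.0842, and leaving out Tcl1-/- replicate 1 took the latter to 0.058.

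**Figure D3:**
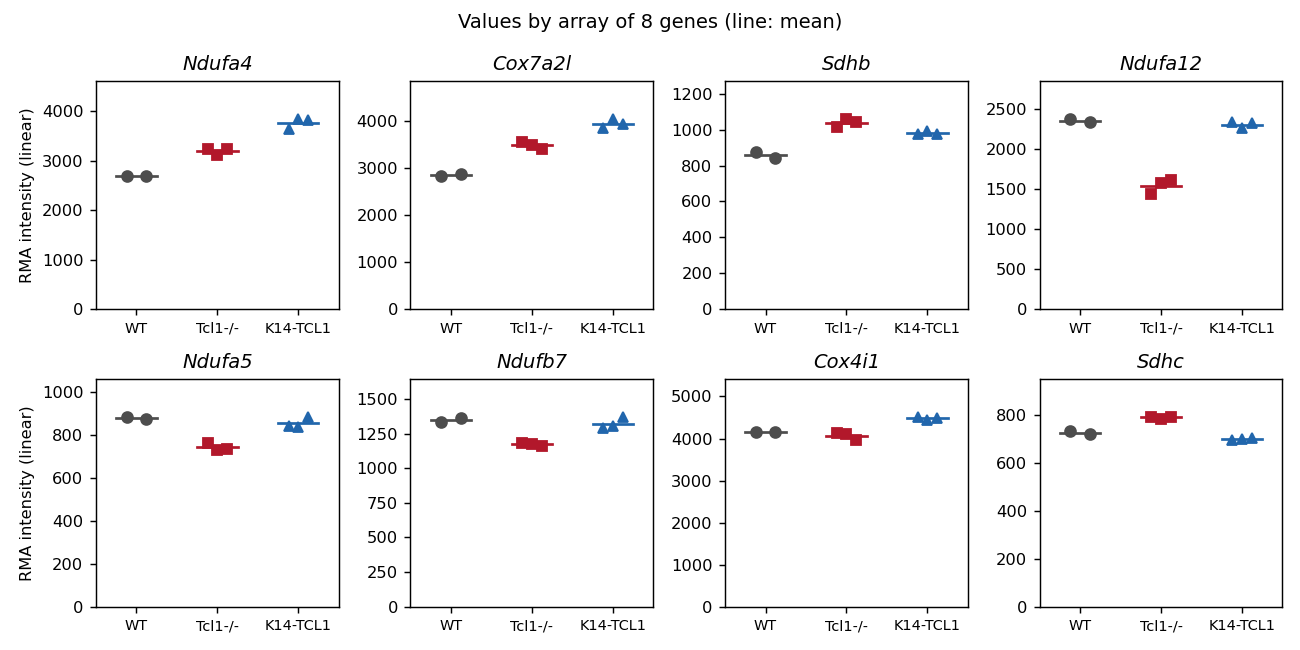
Deposited RMA intensity, on a linear axis from 0, of 8 genes on each array, with 1 point per array and a line at the genotype mean. Ndufa4, Cox7a2l and Sdhb are lowest in WT, Ndufa12, Ndufa5 and Ndufb7 are lowest in Tcl1-/-, and Sdhc is highest in Tcl1-/-.

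Complex III, cytochrome bc1, held 9 genes, of which 2 (22.2%) were lower in Tcl1-/- than in K14-TCL1, where 12.7% of all tested genes were. Uqcr10, a small accessory subunit, was lower by -0.18 ± 0.039 (adjusted p = 0.0128), with 1127, 1209 and 1185 in Tcl1-/-, 1359, 1284 and 1335 in K14-TCL1 and 1228 and 1224 in WT. The arrays of K14-TCL1 lay above all others. Uqcrh, the hinge protein beside cytochrome c1, was lower by -0.11 ± 0.031 (adjusted p = 0.0315) and in K14-TCL1 exceeded WT by 0.17 ± 0.035 (adjusted p = 0.0112). The former was lost without Tcl1-/- replicate 1 or 3 or without K14-TCL1 replicate 1 or 3 (adjusted p = 0.0687 to 0.0948), and the latter without WT replicate 2 (0.088). Of the catalytic members, Uqcrfs1, the Rieske iron-sulfur protein, rose in Tcl1-/- against WT by 0.20 ± 0.044 (adjusted p = 0.0127, and 0.106 without WT replicate 2). Cyc1, which is cytochrome c1, was not called in any comparison, and its differences ran from 0.021 to 0.047.

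Complex IV, cytochrome c oxidase, held the 2 genes with the largest rise in K14-TCL1. Of its 14 tested genes 6 (42.9%) were lower in Tcl1-/- than in K14-TCL1, and 3 (21.4%) were higher in K14-TCL1 than in WT, where 12.7% and 11.7% of all tested genes were. Ndufa4 had 3241, 3122 and 3236 in Tcl1-/-, 3635, 3840 and 3813 in K14-TCL1 and 2692 and 2688 in WT. The 3 genotypes were apart, in the order WT, Tcl1-/-, K14-TCL1. Ndufa4 was higher than in WT by 0.48 ± 0.040 in K14-TCL1 (adjusted p = 0.000117) and by 0.25 ± 0.040 in Tcl1-/- (adjusted p = 0.00256), and lower in Tcl1-/- than in K14-TCL1 by -0.23 ± 0.036 (adjusted p = 0.00249).

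Cox7a2l, which links complexes III and IV into supercomplexes, read 3570, 3509 and 3418 in Tcl1-/-, 3863, 4052 and 3949 in K14-TCL1 and 2841 and 2870 in WT, in the same order and again without overlap. The differences were 0.47 ± 0.038 in K14-TCL1 against WT (adjusted p = 0.000115), 0.29 ± 0.038 in Tcl1-/- against WT (adjusted p = 0.000939) and -0.18 ± 0.034 in Tcl1-/- against K14-TCL1 (adjusted p = 0.0073). Its 3 probe sets ran from 0.29 to 0.39 in Tcl1-/- and from 0.47 to 0.51 in K14-TCL1 against WT, and all were called. Ndufa4 and Cox7a2l were the only 2 of the 82 genes called in all 3 comparisons, a count that was not made over all tested genes. The 6 calls of these genes held in every alternative fit and with every array left out, although neither gene varied enough to enter the test under the criteria of the methods.

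Among the isoform families of complex IV, the calls fell on bright forms found in most tissues. Cox4i2, Cox6b2 and Cox7a1 were too dim to be tested, so no call could fall on them, and the calls do not compare the forms. Cox4i1, the ubiquitous form of subunit 4, had 4126, 4107 and 3964 in Tcl1-/-, 4517, 4439 and 4486 in K14-TCL1 and 4159 and 4151 in WT, with K14-TCL1 above the rest. It was lower in Tcl1-/- than in K14-TCL1 by -0.14 ± 0.032 (adjusted p = 0.0135). Cox6b1 and Cox7a2, the common forms of their subunits, were both lower by -0.14 (SE 0.033 and 0.035). Of these, Cox6b1 was lost without Tcl1-/- replicate 3 (adjusted p = 0.0518), and Cox7a2 without K14-TCL1 replicate 3 (0.0583), Tcl1-/- replicate 2 (0.052) or Tcl1-/- replicate 3 (0.0639). Cox7a2 was also called higher in K14-TCL1 than in WT, at 0.13 ± 0.039 (adjusted p = 0.049), and this was lost without any single array but K14-TCL1 replicate 2 (adjusted p = 0.0555 to 0.201). Cox6a1, Cox6a2, Cox8a, Cox8b and Cox8c were not called in any comparison. Cox6a2 and Cox8b, the forms of heart and skeletal muscle, were dim, at 113 to 134 and 30.3 to 46.7 over the 8 arrays.

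Cox5a, a subunit on the matrix side, was lower in Tcl1-/- than in WT by -0.17 ± 0.039 (adjusted p = 0.0125), with 2863, 2788 and 2884 against 3201 and 3217, and K14-TCL1 at 2985, 3166 and 3113. Without either WT array the call was lost (adjusted p = 0.0688 and 0.0731), and 1 of its 3 probe sets read 0.00092 ± 0.039. Against K14-TCL1 the difference of -0.12 ± 0.035 (adjusted p = 0.0392) was lost when any array but K14-TCL1 replicate 1 was left out (adjusted p = 0.0616 to 0.118).

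Complex V, the ATP synthase, held 14 genes, of which 12 were called in none of the 3 comparisons, a count that was not made over all tested genes. In Tcl1-/- against K14-TCL1, 1 was higher and 1 lower (7.14% each), where 13.9% and 12.7% of all tested genes were. Against WT, 1 was higher in Tcl1-/- (7.14%, where 14.4% of all tested genes were) and none was called in K14-TCL1. The median difference was -0.049 in Tcl1-/- against K14-TCL1, 0.032 in K14-TCL1 against WT and -0.0027 in Tcl1-/- against WT. Its 9 genes of the membrane part and the peripheral stalk all had differences below 0 in Tcl1-/- against K14-TCL1, from -0.098 to -0.0084, and none was called. Atp5a1, the alpha subunit of the catalytic head, was higher in Tcl1-/- than in K14-TCL1 by 0.10 ± 0.031 (adjusted p = 0.0457) and than in WT by 0.11 ± 0.035 (adjusted p = 0.0471). The former was lost without any single array (adjusted p = 0.07 to 0.14), and the latter without any but K14-TCL1 replicate 2 (adjusted p = 0.0599 to 0.178). Atp5e, the epsilon subunit, was lower in Tcl1-/- than in K14-TCL1 by -0.19 ± 0.052 (adjusted p = 0.0311), and this was lost without any single Tcl1-/- array, K14-TCL1 replicate 1 or K14-TCL1 replicate 3 (adjusted p = 0.0698 to 0.0954). The genes for the c subunit, which forms the rotating ring, had differences of -0.015 ± 0.048 (Atp5g1), -0.061 ± 0.045 (Atp5g2) and -0.042 ± 0.032 (Atp5g3) there.

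The genes that share the names without being subunits had calls of their own. Ndufaf4, an assembly factor of complex I, had 211, 203 and 208 in Tcl1-/-, 259, 219 and 276 in K14-TCL1 and 289 and 279 in WT. The Tcl1-/- arrays were the lowest, and those of K14-TCL1 were spread widely below WT. Ndufaf4 was lower in Tcl1-/- than in WT by -0.45 ± 0.086 (adjusted p = 0.00583), and the call held with every array left out. Against K14-TCL1 its difference was -0.27 ± 0.077 (adjusted p = 0.0338), lost without any single array but K14-TCL1 replicate 2 (adjusted p = 0.0507 to 0.0956). Ndufaf3, another such factor, had 279, 280 and 281 in Tcl1-/-, 299, 293 and 306 in K14-TCL1 and 250 and 255 in WT, and was higher than in WT by 0.25 ± 0.036 in K14-TCL1 (adjusted p = 0.00231) and by 0.15 ± 0.036 in Tcl1-/- (adjusted p = 0.0166). The latter was lost without WT replicate 1 (adjusted p = 0.113) or WT replicate 2 (0.0605). Ndufaf1 was lower in Tcl1-/- than in K14-TCL1 by -0.18 ± 0.041 (adjusted p = 0.0141). Atp5s was called higher than in WT in both, at 0.21 ± 0.058 in Tcl1-/- and 0.22 ± 0.058 in K14-TCL1, of which the former was lost without WT replicate 2 or any Tcl1-/- array (adjusted p = 0.0622 to 0.199) and the latter without either WT array or K14-TCL1 replicate 1 or 2 (adjusted p = 0.051 to 0.194).

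Further lists of mitochondrial genes were counted the same way in Tcl1-/- against K14-TCL1, where 12.7% of all tested genes were lower and 13.9% higher. Of these lists, 28 of 75 (37.3%) mitochondrial ribosomal protein genes were lower and none higher, with a median of -0.10, and so were 13 of 32 (40.6%) genes of protein import, with 1 higher and a median of -0.13. Among the former, Mrps12 had -0.61 ± 0.042, and among the latter Hspe1, the co-chaperonin of the matrix, had -0.30 ± 0.038. Of 35 assembly factors 9 (25.7%) were lower and 1 higher. Ndufaf1, Ndufaf3 and Ndufaf4 are among the 35, and the 32 others had 7 lower and 1 higher, led by Sco2, a copper chaperone of complex IV, with -0.33 ± 0.047. Cycs, cytochrome c itself, had -0.28 ± 0.032 among 21 genes of electron carriers and exchange, of which 5 (23.8%) were lower and 2 (9.52%) higher. Against WT, K14-TCL1 had 11 (14.7%) of the 75 mitochondrial ribosomal genes higher and 1 lower, with a median of 0.074. The 82 genes had a median of 0.074 there as well. Of the 32 import genes 6 (18.8%) were higher and 1 lower there, with a median of 0.042. Of all tested genes 11.7% were higher and 9.84% lower there.

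Lists of energy metabolism outside the respiratory chain stood differently. Of 19 genes of the citric acid cycle 2 (10.5%) rose and 1 (5.26%) fell in Tcl1-/- against K14-TCL1, with a median of 0.013. Both shares lie below the 13.9% and 12.7% of all tested genes. Of 20 genes of glucose uptake, glycolysis, lactate and the pyruvate dehydrogenase kinases (Pdk1, Pdk2 and Pdk3) 16 (80%), Pdk1 and Pdk3 among them, were higher and 1 lower, with a median of 0.20, where 13.9% of all tested genes were higher. Against WT, Tcl1-/- had 14 (70%) of them higher and 1 lower, with a median of 0.24, where 14.4% of all tested genes were higher, and K14-TCL1 had 4 (20%) higher and 2 lower, where 11.7% and 9.84% were. Pfkp, a phosphofructokinase, had 0.44 ± 0.034 against K14-TCL1, and Ldhb, a lactate dehydrogenase subunit, had 0.66 ± 0.045 against WT. Of 70 genes of the cytoplasmic ribosome 7 (10%) were lower and none higher in Tcl1-/- than in K14-TCL1, with a median of -0.017. Of 24 regulators of mitochondrial biogenesis 3 (12.5%) were lower and 1 higher. Both the ribosomal and the regulator share lie at or below the 12.7% of all tested genes. In K14-TCL1 against WT, 6 (8.57%) of the 70 cytoplasmic ribosome genes were higher and none lower. Their median there was 0.030, with 59 of the 70 above 0.

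**Figure D4:**
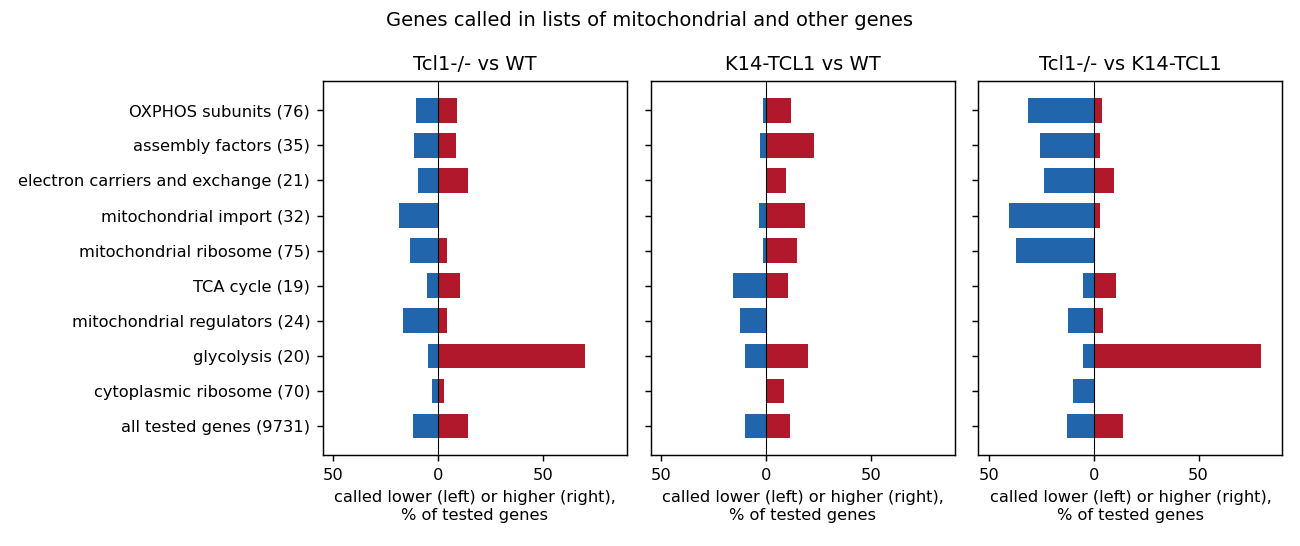
Share of the tested genes of each list called lower (bars to the left) or higher (bars to the right) in the 3 comparisons, in percent, with the number of tested genes in brackets and all 9731 tested genes in the lowest row. In Tcl1-/- against K14-TCL1, 31.6% of the 76 tested subunit genes are called lower and 80% of the 20 genes of the list with glycolysis higher, against 12.7% and 13.9% of all tested genes.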

How the data were processed

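RNA of 8 epidermal sheets was hybridized by the authors to Affymetrix mouse arrays, and the deposited values are RMA intensities on the linear scale. RMA subtracts background and makes the distributions of the arrays alike, so differences are relative to the other genes of an array and those of dim genes are compressed. Its version was not stated. The deposited table holds 22690 probe sets, fewer than the pan-genomic array design named in the methods carries, so genes read only by the rest were not analysed here. A 2nd deposited table held the same values (181520 of 181520 equal). Intensities were taken to log2 without a pseudocount. Control probe sets (64) and those with no name (492) or several (578) were left out. Of 21556 names, 19478 were current in RefSeq, 1633 were updated and 445 kept. Of the members' names, 69 of 85 matched a RefSeq promoter, and the motifs were chosen after the values were seen. Genes whose highest genotype mean was under 5 (log2) were not tested.

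The fit used limma 3.58.1 (lmFit and eBayes, R 4.3.3) with a mean per genotype over all 8 arrays, 5 residual and 3.32 prior degrees of freedom. The methods give separate animals and chips, 3 for each genotype, while 2 WT arrays were analysed here, and the number of arrays limits precision. On simulated data the fit was tested before use. The members, the lists, the tests and the rule for named genes were chosen with earlier results of these data known. Named were the 10 largest called differences of each comparison, up to 3 called genes by smallest p in each complex or list, genes with opposed probe sets, complex IV isoforms, c subunit genes, complex II, Cyc1, Uqcrfs1 and core subunits of complex I, of which 1 gene is not reported here. Alternatives changed the filter, probe sets, scaling, variance model and arrays. Figures were drawn with matplotlib 3.10.9.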

Additional observations from a re-analysis of the deposited data

How the results depend on the processing

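Of 51 calls of named genes, 21 held in every alternative fit and with every array left out, the criteria of the methods apart. The processing alternatives kept 407 of 456 recomputed calls, and leaving out single arrays kept 314 of 408. Beside the brightest, members had 68 tested probe sets. Of these, 44 had the sign of the brightest in Tcl1-/- against WT, 49 in K14-TCL1 against WT and 55 in Tcl1-/- against K14-TCL1. With the mean of a gene's probe sets, both calls of Atp5a1, Cox5a and Cox7a2 were lost. So were those of Ndufa12 and Sdhc in Tcl1-/- against WT and of Sdha in Tcl1-/- against K14-TCL1. Ndufa12 alone turned its direction, to 0.19 in Tcl1-/- against WT and 0.18 against K14-TCL1, without the probe sets ending in _x_at or _s_at, since the brightest remaining probe set then stood for it.

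Genes called higher in K14-TCL1 than in WT (11) became 17 with a filter at 6 on the log2 scale, 31 with a prior variance tied to mean intensity and 7 with only the 2 genotypes compared. Calls over all tested genes there, in either direction, went from 2096 to 2221, 2583 and 1549 in the same order. With that prior variance, the 9 higher in Tcl1-/- than in WT became 16 and the 3 higher than in K14-TCL1 became 7. The calls over all tested genes in these 2 comparisons went from 2593 to 3019 and from 2592 to 3073. The cause was not tested. Under the criteria of the methods, which keep genes that vary 1.4-fold on 20% of arrays and take an unadjusted p under 0.001, 1 member (Ndufa12) passed the filter, and the counts were 0 higher and 1 lower in Tcl1-/- against WT, 0 and 0 in K14-TCL1 against WT, and 0 and 1 in Tcl1-/- against K14-TCL1. Of all genes 255 passed that filter, of which 210, 173 and 163 were called in the same order. The median of Tcl1-/- against WT was 0.013 without the _x_at and _s_at probe sets and -0.022 with arrays centred on the median, and that of K14-TCL1 against WT was 0.059 when centred.

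Deviations of same-numbered arrays from their genotype means had r of -0.061 to 0.057. With 2 or 3 arrays centred on each mean, such values cannot show whether the numbers pair animals. With a replicate block, 6 members were higher and 7 lower in Tcl1-/- against WT, 8 and 1 in K14-TCL1 against WT and 2 and 19 in Tcl1-/- against K14-TCL1, and the median of K14-TCL1 against WT was 0.059. Calls over all tested genes went from 2593 to 2048, from 2096 to 1540 and from 2592 to 2130 with the block.

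With each array left out in turn, members called higher and lower ranged from 4 to 11 and 3 to 9 in Tcl1-/- against WT, from 3 to 15 and 0 to 1 in K14-TCL1 against WT, and from 1 to 2 and 14 to 30 in Tcl1-/- against K14-TCL1. Calls over all tested genes ranged from 1411 to 2912, from 971 to 2208 and from 1781 to 2573. The medians ranged from -0.0072 to -0.00026, from 0.053 to 0.086 and from -0.084 to -0.064. Genes whose values lie near the background of the array, such as Cox8b, have compressed differences.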
